A study of Homo sapiens with 12 samples.

Results

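The 10 genes described here are established targets of the transcription factor p53: CDKN1A, GADD45A, MDM2, BAX, BBC3, TP53INP1, SESN1, SESN2, XPC and DDB2. They were listed by name and not chosen by their signal in any one library, although the list was drawn up with earlier results of these data known. They are 10 of the 19974 protein-coding genes in the RefSeq gene table used (assembly GRCh38.p14). For each gene, peaks were counted within 1 kb of either annotated gene end and in the gene body, for each protein and each replicate.

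The study asked whether INTS13 and transcription factors that interact with it occupy the same genomic places. Chromatin immunoprecipitation followed by sequencing (ChIP-seq), which maps where a protein is found on DNA, was performed in wild type HEK293T cells, a human embryonic kidney line, with antibodies to INTS13, INTS11, HDGF, ZEB1 and ZNF609 and with 2 libraries for each protein. The antibodies to INTS13, HDGF and ZEB1 came from Proteintech, that to INTS11 from Atlas Antibodies, and that to ZNF609 from an earlier publication. All cells were formaldehyde-fixed and untreated as far as the labels say, and 2 input libraries were not analysed here. HEK293T cells carry the SV40 large T antigen, which binds p53, and no group had p53 activated or removed. Peak lists hold no expression values, so the cell type could not be checked against marker genes, and nothing in the labels says whether the replicates came from separate cultures.

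The p53 protein is a DNA-binding tetramer that is kept scarce by the ubiquitin ligase MDM2 and accumulates after DNA damage and other stress. It then raises transcription of genes that stop the cell cycle, repair DNA, adjust metabolism or start apoptosis, and of MDM2 itself, which closes a negative feedback loop. INTS13 and INTS11 are subunits of Integrator, a complex that cleaves nascent RNA at RNA polymerase II genes; INTS11 is its endonuclease, and INTS13 belongs to a module outside the catalytic core. HDGF is a chromatin protein with a PWWP domain, ZEB1 is a zinc finger repressor that recognises E-box sequences of the CACCTG type, and ZNF609 also belongs to the zinc finger proteins.

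The sequence before the start of 4 members is shown first, to show places reached by many, some and few of the lists and with different motifs. Each is the 250 bases before a transcription start in the RefSeq promoter table (GRCh38.p14), 5′ to 3′ on the gene's strand, and that table matched 8 of the 10 members, all but GADD45A and TP53INP1. Capitals mark GGGCGG or its complement CCGCCC (a GC box), CACGTG (a palindromic E-box) and CAGGTG or its complement CACCTG (the E-box type that ZEB1 recognises). The SESN2 stretch, chr1:28259268-28259517 (+), was overlapped by peaks of 7 of the 10 lists. CDKN1A, chr6:36678464-36678713 (+), was overlapped by 3 lists, and so was SESN1, chr6:109094847-109095096 (-). BAX, chr19:48954625-48954874 (+), was overlapped by 1 list.
SESN2: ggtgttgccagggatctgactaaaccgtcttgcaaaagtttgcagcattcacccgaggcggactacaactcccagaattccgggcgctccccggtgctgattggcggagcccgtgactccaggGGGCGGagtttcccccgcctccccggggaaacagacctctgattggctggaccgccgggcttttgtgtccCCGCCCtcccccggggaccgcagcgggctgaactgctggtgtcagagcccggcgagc
CDKN1A: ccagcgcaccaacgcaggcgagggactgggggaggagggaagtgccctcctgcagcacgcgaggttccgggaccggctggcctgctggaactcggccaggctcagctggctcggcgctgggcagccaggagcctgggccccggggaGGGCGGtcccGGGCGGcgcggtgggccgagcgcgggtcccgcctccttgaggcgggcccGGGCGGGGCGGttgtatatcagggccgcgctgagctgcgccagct
SESN1: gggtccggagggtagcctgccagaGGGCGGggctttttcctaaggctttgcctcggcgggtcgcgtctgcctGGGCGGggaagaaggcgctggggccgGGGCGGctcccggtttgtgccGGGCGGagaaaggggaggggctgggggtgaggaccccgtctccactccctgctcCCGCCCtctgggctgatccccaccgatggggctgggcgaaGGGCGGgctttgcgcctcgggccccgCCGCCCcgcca
BAX: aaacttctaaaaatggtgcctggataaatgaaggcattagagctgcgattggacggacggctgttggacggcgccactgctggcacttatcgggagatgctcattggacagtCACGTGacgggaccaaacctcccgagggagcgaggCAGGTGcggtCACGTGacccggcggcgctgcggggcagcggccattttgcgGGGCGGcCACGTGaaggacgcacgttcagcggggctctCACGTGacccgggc

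These stretches were rich in G and C, at 65.6% for SESN2, 76.4% for CDKN1A, 74.4% for SESN1 and 62.8% for BAX, beside a median of 58.0% over the 34789 promoters of the table. GC boxes numbered 2 in SESN2, 4 in CDKN1A (the last pair overlapping), 7 in SESN1 and 1 in BAX, and 42.6% of all promoters held at least 1. The BAX stretch alone among the 4 held E-boxes of the types marked, 4 of CACGTG and 1 of CAGGTG. Other E-box types were not searched. Of all promoters, 6.33% held CACGTG on either strand and 17.5% held CAGGTG or CACCTG. SESN2 and SESN1, whose stretches were overlapped by a ZEB1 peak of replicate 2, held neither E-box within these 250 bases. BAX, which held both, had no ZEB1 peak at either gene end. Such matches describe the letters in this window and say nothing about where a factor binds.

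The 10 peak lists held between 26409 peaks (ZNF609 replicate 2) and 416964 peaks (INTS13 replicate 1) on chromosomes 1 to 22 and X, and the replicates of a protein differed in length, with 195303 and 106144 peaks for INTS11. Read depth is unknown, so a missing peak cannot be told apart from one below the reach of that library. A region below means a stretch where peaks of both lists of a protein overlap by at least 1 bp, and a height means the authors' −log10 p of a peak, which is ranked only within its own list. No test was made on the gene counts. Each is set beside the share of all protein-coding genes that met the same rule.

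INTS13 regions lay within 1 kb of a gene end in 9 of the 10 p53 targets, all but MDM2, and 63.7% of all protein-coding genes had one. HDGF regions lay at the ends of 6 members (CDKN1A, GADD45A, BAX, BBC3, TP53INP1 and SESN2), beside 22.2% of genes. INTS11 regions lay at the ends of 3 (GADD45A, BAX and SESN2), beside 17.4%. ZEB1 regions were found at the ends of GADD45A and SESN2, 2 members, beside 3.78% of genes, and a ZNF609 region at the end of SESN2, 1 member, beside 1.57%. Thus INTS13 was found at nearly all members but also at most genes. The other proteins sorted the members into a short series. It ran from SESN2, with 5 proteins, and GADD45A, with 4, through BAX with 3 to MDM2 with none. The same sets of proteins were found at 1.14%, 1.87% and 7.37% of protein-coding genes for SESN2, GADD45A and BAX. As at MDM2, 35.4% of protein-coding genes had no region of any protein at an end.

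**Figure D1:**
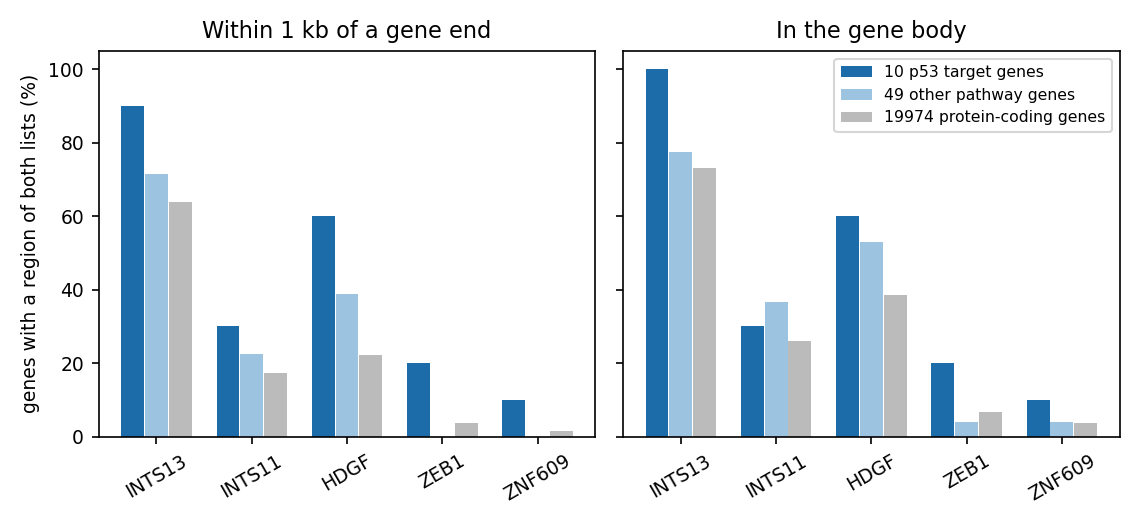
Percent of genes (vertical axis) with a region found in both lists of each protein within 1 kb of a gene end (left) and in the gene body (right), for the 10 p53 targets, 49 other genes of the p53 pathway and all 19974 protein-coding genes. INTS13 bars are the highest in every gene set, and at gene ends HDGF reaches 60% of the p53 targets against 22.2% of protein-coding genes.

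Single lists gave wider counts. INTS13 replicates 1 and 2 had an end peak at 10 and 9 members, beside 79.5% and 68.1% of protein-coding genes. For INTS11 the counts were 8 and 5, beside 50% and 22.2%, so the replicates differed most for this protein. HDGF replicates had 7 and 7, beside 38.5% and 34.6%. ZEB1 replicates had 2 and 3, beside 13.3% and 8.48%, and ZNF609 replicates had 1 and 2, beside 7.0% and 3.43%. Over the lists, an end peak was present in 10 of 10 for SESN2, 9 for GADD45A, 6 for BAX and XPC, 5 for CDKN1A and BBC3, 4 for TP53INP1, SESN1 and DDB2, and 1 for MDM2. The median was 5 lists for members and 3 for all protein-coding genes, of which 17.3% had an end peak in no list.

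**Figure D2:**
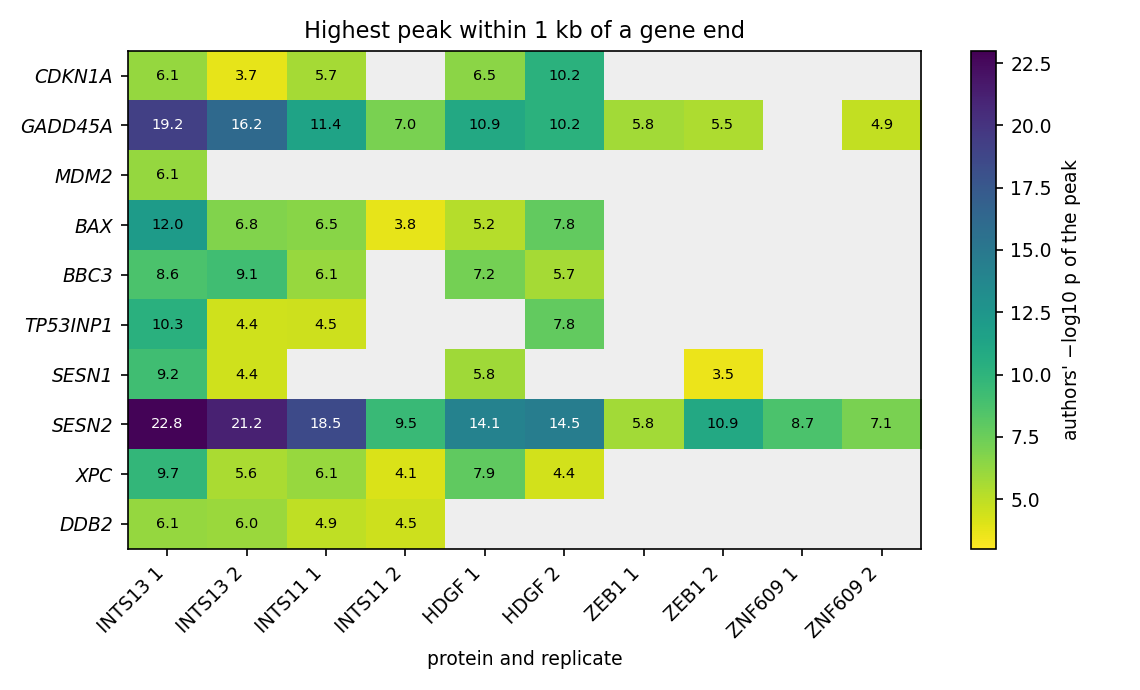
Authors' −log10 p of the highest peak within 1 kb of either gene end, for each p53 target (rows) in each of the 10 lists (columns, protein and replicate), where grey cells have no such peak. SESN2 has a value in all 10 columns and MDM2 in 1, and colours should be read down a column because lists differ in scale.

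Among the genes of cell cycle arrest, CDKN1A encodes the p21 inhibitor of cyclin-dependent kinases and is the most widely used reporter of p53 activity. It occupies chr6:36676463-36687332. Its highest end peaks were 6.13 and 3.71 in the INTS13 lists, 5.68 in INTS11 replicate 1 with none in replicate 2, and 6.50 and 10.2 in the HDGF lists. Ranked from the top among genes with an end peak, CDKN1A stood at 68.5% and 86.3% of the way down the INTS13 lists and at 31.2% and 6.20% of the HDGF lists. These lists differ in length, so the positions are not compared between proteins. Neither ZEB1 nor ZNF609 had an end peak at CDKN1A.

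The annotated record of CDKN1A begins upstream of the start in the promoter table, 36678714, and the classical p53 site of this gene is known to lie upstream of that start. The lower end window therefore covers the far upstream part of the locus. The HDGF region, chr6:36675859-36678139, stood there, overlapping INTS13 regions at chr6:36675684-36676725 and chr6:36677041-36677869. A further INTS13 region, chr6:36678187-36680834, spanned the promoter-table start, which peaks of 3 lists covered (INTS13 replicates 1 and 2 and INTS11 replicate 1) and peaks of 7 lists approached within 1 kb. Within 1 kb of this start INTS13 heights were 8.63 and 5.17, above those at the gene ends, which the ranks above describe. There INTS11 replicate 1 reached 6.54, and HDGF reached 6.50 and 5.00. The ZEB1 lists had 1 peak each within 1 kb of this start, of height 4.38 and 4.0, but the 2 peaks did not overlap and so formed no region. The HDGF region and the first INTS13 region also lay within 1 kb of the lncRNA genes DINOL and PANDAR and of the pseudogene LAP3P2, and the second INTS13 region within 1 kb of DINOL, so they cannot be assigned to CDKN1A alone.

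GADD45A, the other arrest gene, encodes a small stress sensor that binds cell cycle and repair proteins, and is short, at 3.13 kb (chr1:67685201-67688334). INTS13 end peaks reached 19.2 and 16.2, ranks 361 of 15884 and 268 of 13611 genes with an end peak. INTS11 peaks reached 11.4 and 7.04, and HDGF peaks reached 10.9 and 10.2. GADD45A was thus in the upper ranks of both INTS13 lists and of INTS11 replicate 1 and both HDGF lists, where it stood between 1.97% and 6.20% of the way down, and stood lower in INTS11 replicate 2, at 17.4%. ZEB1 peaks were 5.81 and 5.49, lower in their lists at 32.0% and 31.5%, and ZNF609 had 1 peak, of 4.86, in replicate 2. The set of 9 lists was shared with 44 protein-coding genes in all, GADD45A included, or 0.220%.

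ZEB1 formed 3 regions at the ends of GADD45A, at chr1:67683869-67684444, chr1:67685289-67686623 and chr1:67688331-67689574, and each overlapped an INTS13 region. The INTS13 region chr1:67682720-67687833 ran from before the lower gene end to most of the way through the gene. With the other INTS13 region, chr1:67688517-67690112, it covered most of the gene and its end windows, so the ZEB1 overlaps were close to fixed in advance. INTS13 peaks covered 72.0% and 62.6% of the gene body, INTS11 peaks 70.1% and 33.3%, HDGF peaks 61.0% and 65.8%, and ZEB1 peaks 40.8% and 15.8%.

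**Figure D3:**
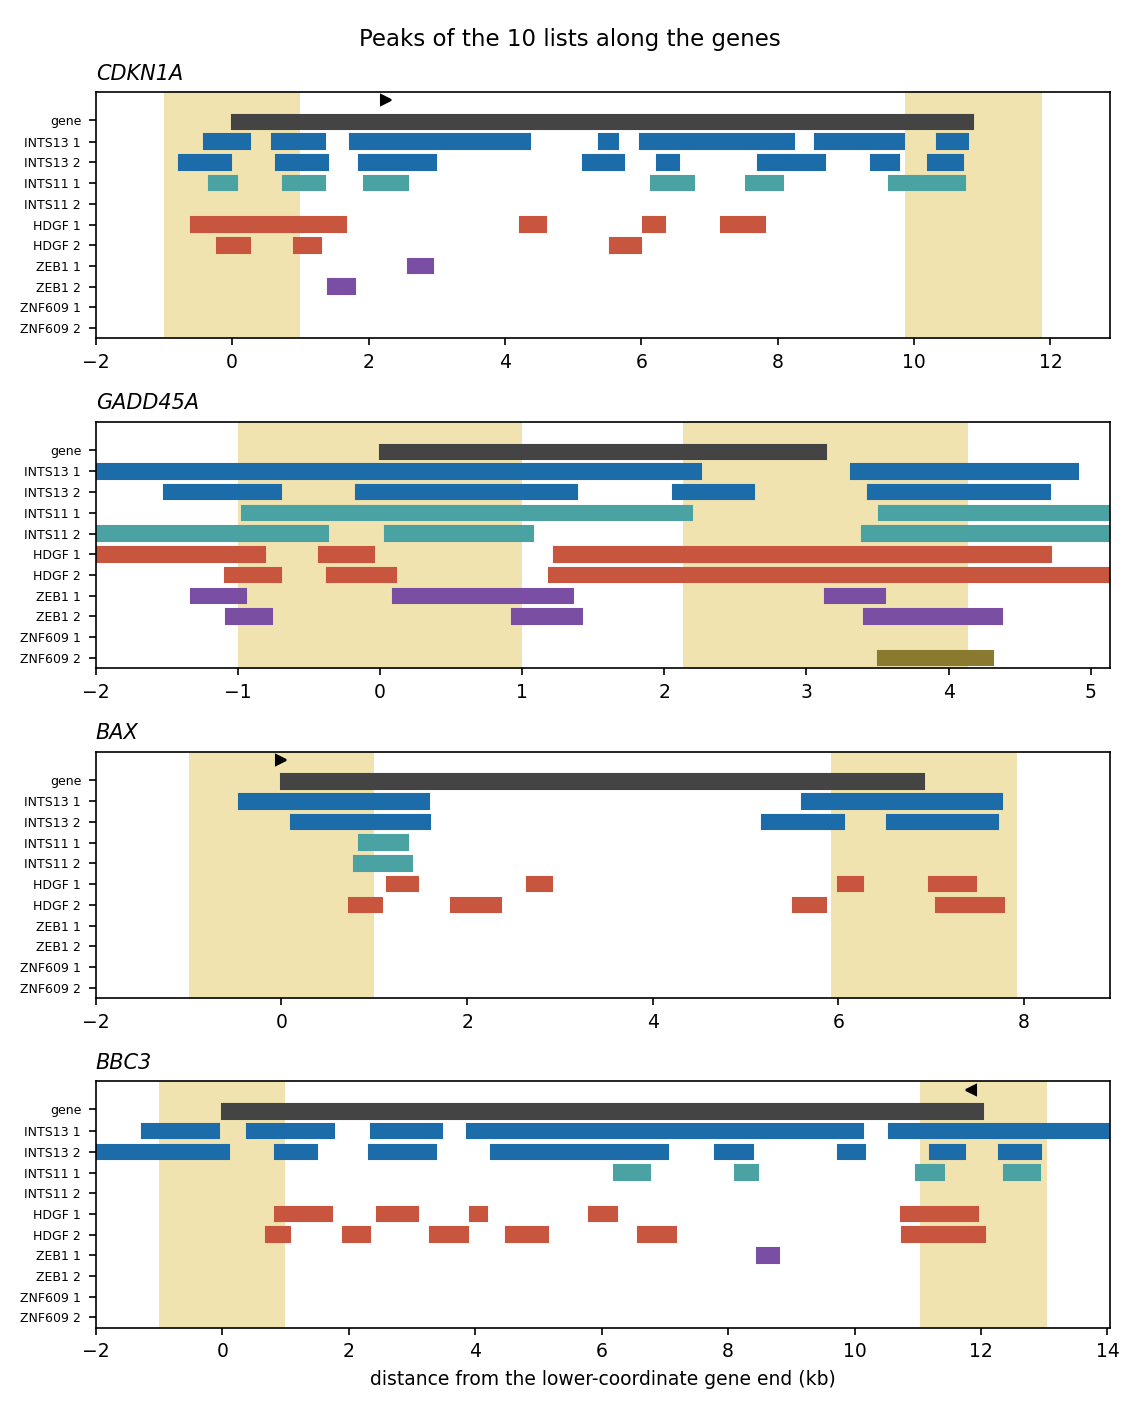
Peaks of each list (rows, protein and replicate) along CDKN1A, GADD45A, BAX and BBC3, against distance in kb from the lower-coordinate gene end, with the gene as a dark bar, the 1 kb end windows shaded and transcription starts of the promoter table as arrowheads where the table holds the gene. GADD45A lies under wide peaks of INTS13, INTS11 and HDGF and has narrower ZEB1 peaks, whereas CDKN1A, BAX and BBC3 carry INTS13 and HDGF peaks with no ZNF609 peak.

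MDM2, the ubiquitin ligase of the feedback loop (chr12:68808172-68850686), had an end peak in the fewest lists of any member. Its end windows held peaks in INTS13 replicate 1 alone, the highest at 6.13, and in none of the other 9 lists. That peak covered the first start of the promoter table, 68808172, and lay within 1 kb of the later starts 68809017 and 68809024. The p53-responsive promoter of MDM2 is known to lie inside the gene, downstream of the first start. The same list pattern was seen at 1677 protein-coding genes (8.40%), among them ASCC3, PLK2, SPATA18, TP53BP1 and TRIM22 of the p53 pathway.

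Inside the MDM2 gene HDGF had more peaks than INTS13 in both replicates, as it also had in SESN1. HDGF replicates had 18 and 11 peaks in the 42.5 kb body, whereas INTS13 had 6 and 3, INTS11 1 and 1, ZNF609 1 and 0, and ZEB1 none. HDGF peaks stood at 0.423 and 0.259 per kb, and 11.4% and 18.0% of protein-coding genes had a denser body. For INTS13 the densities were 0.141 and 0.0706 per kb, and 63.2% and 67.5% of genes were denser. HDGF formed 5 regions in the body, between chr12:68810940-68811508 and chr12:68841210-68841685. Of these, 0 of 5 overlapped an INTS13 region, beside 73.9% of HDGF regions over protein-coding genes. The single INTS13 region, chr12:68825332-68825799, lay apart from them and was 468 bp wide, which left little room for overlap. INTS13 peaks found in 1 list only did overlap HDGF regions, at chr12:68819507-68819797 (replicate 1) and chr12:68840200-68841529 (replicate 2). HDGF heights in this body were at most 7.87 and 6.36, and 10% of all peaks in those lists lay at or above 7.17 and 7.81.

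**Figure D4:**
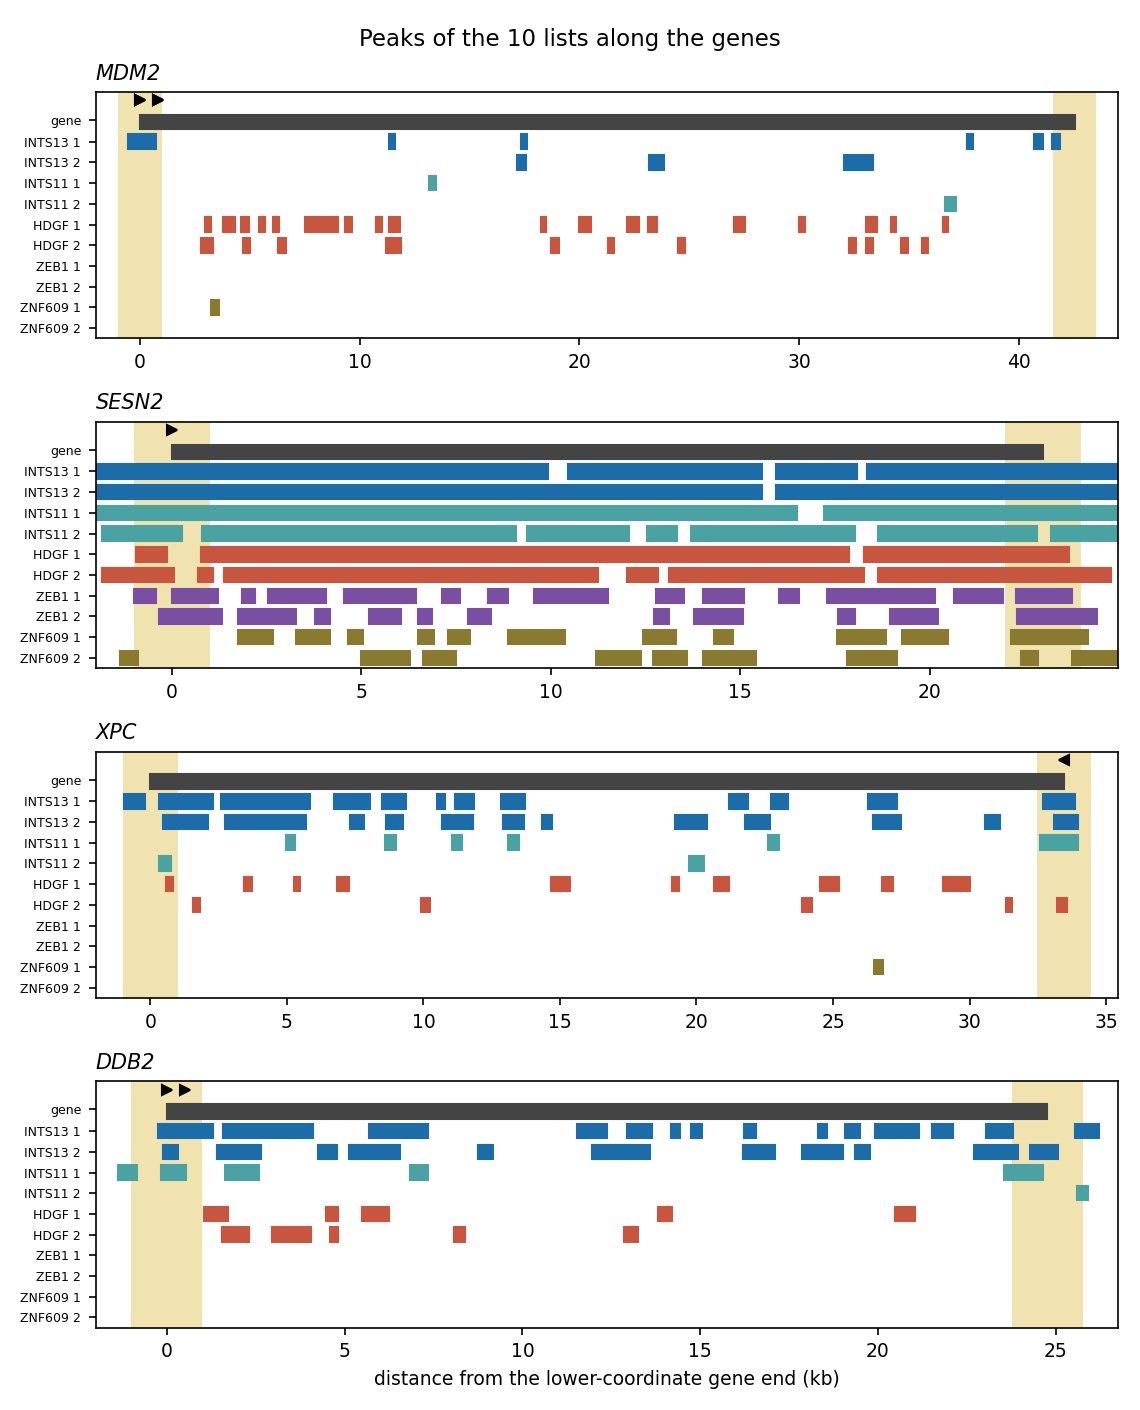
Peaks of each list (rows, protein and replicate) along MDM2, SESN2, XPC and DDB2, against distance in kb from the lower-coordinate gene end, with the gene as a dark bar, the 1 kb end windows shaded and transcription starts as arrowheads. MDM2 shows 18 and 11 HDGF peaks in its body and few of INTS13, and SESN2 is covered nearly end to end by INTS13, INTS11 and HDGF peaks.

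Of the genes of apoptosis, BAX encodes the pore-forming effector of the mitochondrial outer membrane (chr19:48954875-48961798). INTS13 end peaks were 12.0 and 6.82, INTS11 peaks 6.54 and 3.76, and HDGF peaks 5.22 and 7.81. It was the one member outside SESN2 and GADD45A with an INTS11 region, chr19:48955662-48956281, which lay 787 to 1406 bases past the lower gene end and inside the INTS13 region chr19:48954419-48956479. The INTS11 peak of replicate 2 was low in its list, at rank 3528 of 4442. With windows of 500 bp BAX had no INTS11 region. The HDGF region, chr19:48961851-48962662, stood at the opposite end, just beyond the gene. The start itself was covered in 1 list, INTS13 replicate 1, and 5 lists had a peak within 1 kb of it.

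BBC3 encodes PUMA, a BH3-only protein that blocks the survival proteins of the BCL2 family (chr19:47220824-47232860, minus strand). INTS13 end peaks were 8.63 and 9.13, HDGF peaks 7.17 and 5.67, and INTS11 had 6.10 in replicate 1 and none in replicate 2. INTS13 formed 5 regions that ran from one end of the gene to the other with gaps, and peaks covered 85.3% and 51.8% of its body, with 5.53% and 17.8% of protein-coding genes covered more. The 2 HDGF regions marked the ends, chr19:47221516-47222557 downstream and chr19:47231553-47232885 at the start, and both overlapped an INTS13 region. CDKN1A and BBC3 had the same 5 lists with an end peak, a set shared with 7.29% of protein-coding genes.

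TP53INP1 encodes a stress protein of nuclear bodies and autophagy that promotes p53 activity, and lies within the bounds of the longer gene NDUFAF6. INTS13 end peaks were 10.3 and 4.41, INTS11 had 4.50 in replicate 1, and HDGF had 7.81 in replicate 2. INTS13 and HDGF each had a region at the upper end, and the HDGF region came from a replicate 1 peak that itself lay outside the 1 kb window. Both regions also fell within NDUFAF6, so they cannot be assigned to TP53INP1 alone. In the body, peaks covered 11.4% and 9.72% for INTS13, less than the means of 27.8% and 24.7% over protein-coding genes.

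The sestrins are stress-induced inhibitors of mTORC1 signalling that also limit oxidative damage, and the 2 members here differed sharply. SESN1, at 111 kb the longest member (chr6:108984309-109094846, minus strand), had INTS13 end peaks of 9.17 and 4.41, an HDGF peak of 5.84 in replicate 1 and a ZEB1 peak of 3.55 in replicate 2. The INTS13 and ZEB1 peaks covered the start shown above, and the HDGF peak, chr6:109095460-109095916, lay 614 bases from it. That HDGF peak fell inside the divergent neighbour CEP57L1, and the INTS13 region, chr6:109094292-109095973, reached into it. Neither can therefore be assigned to SESN1 alone. Its combination of 4 lists was shared with 12 protein-coding genes in all (0.0601%), but the HDGF and ZEB1 peaks were each found in 1 replicate only. The ZEB1 peak, with a −log10 q of 1.27, stood 88.5% of the way down its list. Only INTS13 formed a region at an end, as at 35.5% of protein-coding genes. Peaks covered 3.97% and 2.50% of the body for INTS13, the least of any member in both replicates. HDGF had 18 and 9 peaks in the SESN1 body, covering 6.16% and 3.13%, and INTS13 had 10 and 6.

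The internal starts of SESN1 in the promoter table were reached by INTS13 replicate 1 alone, whose peak of 6.13 covered 109009552 and lay within 1 kb of 109008988. The 250 bases before the latter held 1 match to the p53 decamer, which is a half-site. It was the only match among the members' stretches, and 5.57% of all promoters held one. Some members had several stretches searched, with 4 for MDM2 and 3 for SESN1, so nothing is concluded from 1 match.

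SESN2 (chr1:28259518-28282491) was the member with the most signal of every protein. INTS13 end peaks reached 22.8 and 21.2, ranks 162 of 15884 and 59 of 13611. INTS11 reached 18.5 and 9.47, ranks 48 of 9990 and 254 of 4442, and HDGF 14.1 and 14.5, ranks 108 of 7687 and 69 of 6908. ZEB1 reached 5.81 and 10.9, ranks 849 of 2656 and 12 of 1694, and ZNF609 reached 8.67 and 7.06, ranks 58 of 1398 and 87 of 686. SESN2 was the highest member in 9 of the 10 lists and tied with GADD45A in ZEB1 replicate 1. An end peak in all 10 lists was found at 290 protein-coding genes, or 1.45%.

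The signal at SESN2 was broad and not confined to its start. INTS13 peaks covered 94.9% and 98.3% of the gene body, INTS11 peaks 96.8% and 89.3%, and HDGF peaks 94.9% and 89.9%. ZEB1 peaks covered 66.0% and 39.8%, and ZNF609 peaks 41.1% and 32.3%. For HDGF, 0.125% and 0.110% of protein-coding genes were covered more. Of the single end peaks, those of INTS13 replicate 1, INTS11 replicate 1 and HDGF replicate 1 were 22874, 24624 and 17075 bp wide, against median widths of 550, 555 and 419 bp in those lists. ZEB1 formed 8 regions and ZNF609 6, spread along the gene. INTS13 regions, chr1:28246571-28275088 and chr1:28275467-28292252, spanned almost all of it, so overlap with INTS13 was close to fixed in advance here. At the start itself, 6 lists covered the first base and 9 had a peak within 1 kb, the exception being ZNF609 replicate 1, and the ZNF609 region of the gene ends, chr1:28281646-28284670, lay at the far end.

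Both members of nucleotide excision repair recognise ultraviolet damage. XPC (chr3:14145147-14178601, minus strand) had INTS13 end peaks of 9.72 and 5.57, INTS11 peaks of 6.10 and 4.13 and HDGF peaks of 7.87 and 4.37. Although 6 lists had an end peak, the INTS11 and HDGF replicates had theirs at opposite ends of the gene, so INTS13 alone formed regions. INTS13 had 9 of them in and around XPC, and the one at the start, chr3:14177846-14179133, reached the divergent neighbour LSM3. The HDGF lists had 10 and 5 peaks in the body and still no region.

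DDB2 (chr11:47214454-47239217) had INTS13 end peaks of 6.13 and 5.97 and INTS11 peaks of 4.88 and 4.50, again at different places, and no HDGF end peak. INTS13 formed 9 regions, the first across the start at chr11:47214215-47215758, and those at the far end also lay within 1 kb of ACP2. HDGF formed 2 regions in the body, at chr11:47215493-47216767 and chr11:47218942-47219277. The first overlapped an INTS13 region. The second overlapped no INTS13 region, only a peak of INTS13 replicate 2, chr11:47218715-47219241. The repair genes thus had INTS13 regions along their length and no region of another protein within 1 kb of the outer gene ends. With windows of 2 kb, or of 1 kb around the annotated starts, DDB2 also had an HDGF region, the first of those above.

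**Figure D5:**
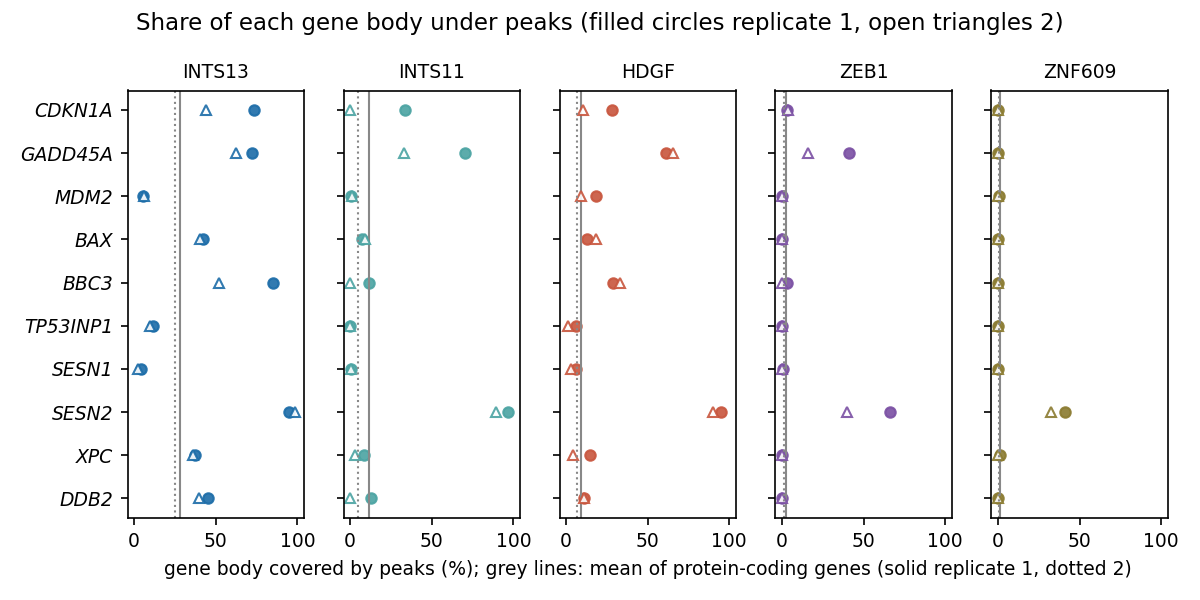
Percent of each p53 target's gene body covered by peaks (horizontal axis), in replicate 1 (filled circles) and replicate 2 (open triangles) of each protein, with the mean of all protein-coding genes as grey lines (solid for replicate 1, dotted for replicate 2). SESN2 lies far to the right in all panels, GADD45A in the first 4, and SESN1 and MDM2 lie left of the mean for INTS13.

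In gene bodies, INTS13 regions were found in 10 of 10 members, beside 73.2% of protein-coding genes. HDGF regions were found in 6 (CDKN1A, GADD45A, MDM2, BBC3, SESN2 and DDB2), beside 38.5%, and INTS11 regions in 3, beside 26.0%. ZEB1 regions were found in 2, beside 6.68%, and a ZNF609 region in 1, beside 3.66%. The INTS11, ZEB1 and ZNF609 members were the same as at the ends. HDGF exchanged BAX and TP53INP1, marked beyond their ends, for MDM2 and DDB2, marked inside. Body counts depend on gene length, which ran from 3.13 kb for GADD45A to 111 kb for SESN1. The median member had 43.7% and 39.9% of its body covered by INTS13 peaks, and the median protein-coding gene 16.7% and 14.3%. For HDGF the medians were 16.6% and 10.8% over members and 1.78% and 0.890% over protein-coding genes.

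Colocalisation with INTS13, which the study asked about, could be read region by region. Of the regions in or at the ends of members, 4 of 4 INTS11, 11 of 11 ZEB1 and 6 of 6 ZNF609 regions overlapped an INTS13 region by at least 1 bp, and over all protein-coding genes the shares were 86.4%, 91.8% and 88.8%. SESN2 held 8 of the ZEB1 and all 6 of the ZNF609 regions, where INTS13 regions span almost the whole gene and an overlap could hardly fail. The overlaps in SESN2, those of its 1 INTS11 and 2 HDGF regions included, therefore say nothing about colocalisation. Outside it the ZEB1 count rests on the 3 regions of GADD45A. There INTS13 regions cover most of the gene and its end windows, so overlaps of any protein in GADD45A could hardly fail either. For HDGF the count was 11 of 17, beside 73.9%. The 6 HDGF regions without an INTS13 region were the 5 in MDM2 and 1 in DDB2. Peaks of a single INTS13 list still overlapped the DDB2 region and some of the MDM2 regions. In the other 6 genes with HDGF regions 10 of 10 overlapped an INTS13 region. Of these, 3 were in GADD45A and 2 in SESN2, where an overlap could hardly fail. BBC3 held 2, and CDKN1A, BAX and TP53INP1 held 1 each. INTS13 peaks covered 85.3% and 51.8% of the BBC3 body and 73.5% and 43.7% of the CDKN1A body, so overlap was likely there too.

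Peaks were unevenly spread along the chromosomes, and this moved with the results above. In 1 Mb bins, the peak count relative to the average bin had a median over the 10 lists of 11.7 for the bin of SESN2, 10.0 for that of GADD45A and 2.22 for that of XPC, and was under 2 for the other 7 members. For ZNF609 the SESN2 bin held 23.2 and 27.5 times the average, and for ZEB1 23.5 and 23.9 times. Bins above 2 held 4529 protein-coding genes (22.7%). In them, 95.3% of genes had an INTS13 region at an end, 56.7% an INTS11, 55.3% an HDGF, 16.1% a ZEB1 and 6.78% a ZNF609 region, and outside them 54.5%, 5.95%, 12.5%, 0.168% and 0.0388%. Both members with ZEB1 and the one with ZNF609 were in such bins. Among the 7 members outside them, INTS13 regions were at the ends of 6, INTS11 of 1 (BAX), HDGF of 4 (CDKN1A, BAX, BBC3 and TP53INP1), and ZEB1 and ZNF609 of 0. For single proteins the picture differed: the INTS13 lists and the HDGF lists were each above 2 in the bins of CDKN1A (2.59 and 2.62 for INTS13, 2.28 and 2.17 for HDGF), BAX (3.18 and 3.40, 3.68 and 3.92), BBC3 (2.88 and 3.14, 3.25 and 3.39) and DDB2 (2.40 and 2.93, 3.80 and 3.33). So 3 of the 4 members with HDGF outside bins that were dense over all lists, CDKN1A, BAX and BBC3, lay in bins that were dense for HDGF. Why these bins are dense, and their part in the member counts, was not tested.

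Of 49 other genes of the p53 pathway, 35 (71.4%) had an INTS13 region at an end, 19 (38.8%) an HDGF region, 11 (22.4%) an INTS11 region and 0 a ZEB1 or ZNF609 region. In gene bodies the counts were 38, 26, 18, 2 and 2, beside 73.2%, 38.5%, 26.0%, 6.68% and 3.66% of protein-coding genes. The set of 3 proteins at the ends of BAX, namely INTS13, INTS11 and HDGF, was found at 7.37% of protein-coding genes. These 3 proteins marked BID, a BH3-only death protein, and BTG2, an antiproliferative factor. They also marked CDKN2A, which encodes the MDM2 inhibitor ARF, and MDM4, the p53 inhibitor related to MDM2. CHEK2, HIPK2 and KAT5, enzymes that modify p53, were in this group, as were the ubiquitin ligase subunit gene FBXO22 and the AKT inhibitor gene PHLDA3. AEN, a nuclease of apoptosis, had INTS13 and HDGF. No list had an end peak at EDA2R, a death receptor family gene, at PMAIP1, which encodes NOXA, or at RPS27L. Unlike MDM2, then, its relative MDM4 had end peaks in 7 of the 10 lists.

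The height of the peaks separated the members further. When both lists of a protein were limited to peaks with a −log10 q of 5 or more, INTS13 regions remained at the ends of 3 members, GADD45A, BBC3 and SESN2, beside 18.1% of protein-coding genes. HDGF regions remained at GADD45A and SESN2, beside 2.66%, and an INTS11 region at SESN2, beside 2.83%, while ZEB1 and ZNF609 had none, beside 0.225% and 0.0701%. CDKN1A, BAX, TP53INP1, SESN1, XPC and DDB2 had no region of any protein left at their ends under this limit, which both lists had to meet. In INTS13 replicate 1 by itself the highest end peak of BAX, TP53INP1, SESN1 and XPC passed it, with −log10 q of 8.92, 7.42, 6.48 and 6.94, and the peaks of replicate 2 did not, at 4.53, 2.66, 2.66 and 3.54.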

How the data were processed

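Peaks of 5 proteins (2 lists each) were analysed in HEK293T cells. Per the submitters' processing notes the authors used FastQC, Trimmomatic, Bowtie, Picard and MACS2. The control and thresholds were not given in the sources used here. Each deposited list holds a fold (a linear ratio over background), a p-value and q-value on a −log10 scale, and a whole-number score, all the authors' own and used only within their list. Gaps in the deposited peak numbers show that peaks had been removed, and 119 deposited summits lie outside their interval. GRCh38 was inferred from contig names.

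With Python 3.11.15 and pandas 2.3.3, peaks were placed on RefSeq GRCh38.p14 genes. Regions joined overlapping peaks of both lists (at least 1 bp). Lists have no depth, so no counting intervals are given. All 10 members were named; of 49 pathway genes, up to 10 with most proteins and those in 0 lists were named. Members and lists were chosen with earlier results of these data known. Overlap and counting code was checked on simulated data. Alternatives changed window, height limit, overlap and replicate.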

Additional observations from a re-analysis of the deposited data

How the results depend on the processing

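Counts of members moved with peak height and with the number of lists required. With a −log10 q of 5 or more, end counts were 3 (INTS13), 1 (INTS11), 2 (HDGF), 0 (ZEB1) and 0 (ZNF609). Of protein-coding genes, 18.1%, 2.83%, 2.66%, 0.225% and 0.0701% met this rule. Body counts were 3, 1, 2, 0 and 0, beside 22.1%, 3.55%, 3.93%, 0.355% and 0.190%. With the top 10000 peaks of each list, end counts were 2 (INTS13), 1 (INTS11), 2 (HDGF), 0 (ZEB1) and 1 (ZNF609). The shares of protein-coding genes were 4.66%, 2.46%, 3.64%, 0.956% and 0.511%. Body counts were 2, 1, 2, 1 and 1, beside shares that ran from 1.17% (ZNF609) to 5.40% (HDGF). With annotated starts only, over 8 members, ZEB1 had 1 and ZNF609 0, and HDGF had 4, now with DDB2 and without BAX. No share over all genes was computed for that window. Using 1 list in place of both gave 5 to 8 ends and 6 to 9 bodies for INTS11, 10 to 10 bodies for HDGF, 4 to 5 bodies for ZEB1, and 1 to 2 ends and 1 to 3 bodies for ZNF609; fewer lists ask for less agreement by construction. Over all alternatives and proteins, 45 counts stayed within 1.5 times the main count and 30 did not. No paired analysis was possible because the counts come from no test. Depth is unknown and the lists end at different heights, which limits what an absent peak can show.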
